A study of Mus musculus with 12 samples.

Results

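To place these cultures between dendritic cells (DCs) and macrophages, 9 lineage regulators were followed through the series: the transcription factor genes Spi1, Zbtb46, Batf3 and Id2, the cytokine receptor genes Flt3, Csf1r, Csf2ra and Csf2rb, and the integrin gene Itgax. They were taken by gene symbol and are 9 of the 55471 genes in the count table. Knockdown of Ppargc1b was accompanied by higher Zbtb46, Flt3, Csf2rb and Itgax, both without stimulation and with interferon-β (IFN-β). The call of Flt3 without stimulation was lost in 6 of 18 alternative settings, and that of Itgax with IFN-β in 2 of 18. Spi1, Batf3, Id2, Csf1r and Csf2ra did not pass the test for knockdown in either state. IFN-β raised Spi1 by 37.1% in control cells and by 35.7% after knockdown, and this was the only response of a regulator to IFN-β that passed in both cell types under every setting tried. Its size depended on the setting, at log2 changes of 0.46 and 0.44, or 0.21 and 0.24 when libraries were scaled by their totals alone. The receptor genes Csf1r and Csf2rb and the integrin gene Itgax stood among the most abundant messages per length, whereas Flt3 lay below most tested genes.

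RNA was sequenced from mouse DCs grown from the marrow of adult female C57BL/6 mice in medium with GM-CSF (granulocyte-macrophage colony-stimulating factor), so all 4 groups grew in the ligand of the receptor that Csf2ra and Csf2rb encode. Marrow cells received a retrovirus with a short hairpin RNA against firefly luciferase (shControl) or against Ppargc1b (shPpargc1b), which encodes PGC-1β, a co-activator of transcription, and the transduced cells were sorted on the human CD8 that the virus carries. Each kind of cell was left unstimulated or was given IFN-β for 6 h, which makes 4 groups of 3 libraries. The labels do not say whether the libraries of a group came from separate mice or cultures, so the p-values describe the spread between these libraries, which may be technical. The knockdown rests on 1 hairpin against Ppargc1b and was partial.

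DCs and macrophages share precursors in the marrow, and the same set of factors and receptors steers them apart. PU.1, the product of Spi1, is needed for both fates. Zbtb46 is a repressor found in classical DCs and their committed precursors and is low in most macrophages, BATF3 is needed for the cDC1 type of DC, and ID2 favours classical over plasmacytoid DCs by holding E proteins back. FLT3 is the receptor through which Flt3 ligand drives DC development in the body, CSF1R is the receptor for CSF1 and IL-34 that macrophages depend on, and CSF2RA pairs with CSF2RB to form the GM-CSF receptor. Itgax encodes CD11c, the integrin chain by which DCs are usually gated, although many macrophages carry it too.

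The 12 libraries held between 49919648 and 77726101 counts, and all 9 regulators passed the filter on low counts that left 18228 genes to test. Ppargc1b itself fell by 0.83 ± 0.10 on the log2 scale in unstimulated cells (adjusted p = 3.2e-05) and by 0.57 ± 0.11 when IFN-β was present (adjusted p = 9.5e-04), and its libraries did not overlap between hairpins in either state. Levels are given as CPM, counts scaled to a common library size, after TMM normalization (trimmed mean of M-values), changes as log2 fold changes ± SE from edgeR's quasi-likelihood test, and calls at a Benjamini-Hochberg adjusted p under 0.05. With 3 libraries against 3 an exact two-sided permutation test of a single gene cannot go below 0.1, the value it takes where groups do not overlap. TMM factors were 1.07 to 1.09 in the unstimulated libraries and 0.914 to 0.941 with IFN-β, so directions under IFN-β depend on the scaling. With library totals in place of TMM the median log2 change of all genes under IFN-β moved from -0.0338 to -0.273 in shControl cells and from -0.0184 to -0.221 in shPpargc1b cells, and the share of calls that were higher went from 49.0% to 23.9% and from 50.2% to 23.7%. For knockdown the same change left that median within 0.0183 of zero without stimulation and within 0.0126 with IFN-β.

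To compare the regulators with each other, CPM was divided by the length of each gene's merged exons. In unstimulated shControl cells Csf2rb stood highest at 312 ± 3.16 RPKM (CPM per kilobase of exon, SD, n = 3), followed by Id2 at 265 ± 8.28, Csf1r at 212 ± 3.22 and Itgax at 197 ± 12.8. Csf2ra had 95.7 ± 1.59 RPKM and Spi1 77.0 ± 6.14. These 6 genes were above 97.7% or more of the 18194 tested genes with a known length, and Csf2rb was above 99.6%. Well below came Batf3 at 6.92 ± 0.803 RPKM, above 70.8% of genes, Zbtb46 at 2.20 ± 0.275, above 46.9%, and Flt3 at 0.314 ± 0.0654, above 19.4%. Neighbours in this order did not overlap between libraries, apart from Csf1r and Itgax.

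The order of the upper ranks shifted between groups while the lower ranks kept theirs. After knockdown Itgax moved above Csf1r without overlap, at 237 ± 3.11 against 210 ± 2.64 RPKM unstimulated and 240.3 ± 5.39 against 204 ± 2.85 RPKM with IFN-β. In shControl cells given IFN-β, Id2 at 286 ± 5.70 RPKM was above Csf2rb at 276 ± 2.78 RPKM. That order depends on the length used, since division by the longest transcript put Id2 at 354 and Csf2rb at 410.4. Batf3, Zbtb46 and Flt3 held places 7, 8 and 9 in all 4 groups. Per length, the level of Zbtb46 was 1.04% ± 0.142 of that of Csf1r in unstimulated control cells and 1.83% ± 0.157 in knockdown cells with IFN-β.

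**Figure D1:**
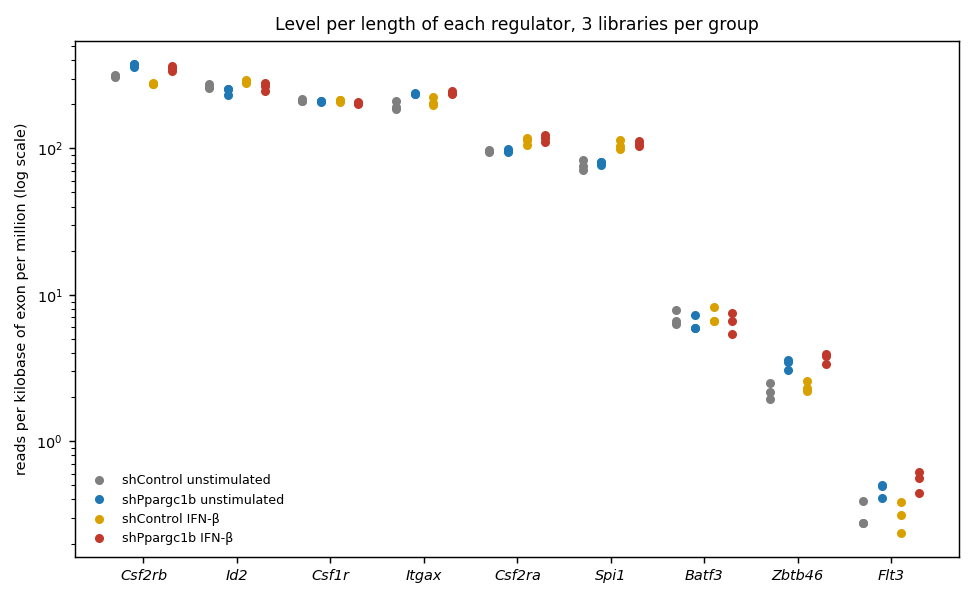
Level per length of the 9 regulators in RPKM on a log axis, 1 point per library and 4 colours for the 4 groups, ordered by the mean of unstimulated shControl cells. Csf2rb, Id2, Csf1r and Itgax lie near the top at 187 to 376 RPKM, Batf3 and Zbtb46 between 1.94 and 8.32, and Flt3 at 0.617 or less in every library.

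Zbtb46 (ENSMUSG00000027583, GRCm38 chr2:181387762-181459426, minus strand) showed the clearest response to knockdown among the factors. It was counted at 21.2, 16.5 and 18.4 CPM in the unstimulated shControl libraries and at 29.7, 25.9 and 30.3 CPM in the unstimulated shPpargc1b libraries. With IFN-β it had 22.1, 19.6 and 18.9 CPM in control cells and 33.5, 28.8 and 32.7 CPM after knockdown. Every knockdown library was thus above every control library in both states. The log2 change was 0.61 ± 0.09 without stimulation (1.53-fold, adjusted p = 1.6e-04) and 0.65 ± 0.09 with IFN-β (1.57-fold, adjusted p = 1.0e-04), and across 18 alternatives for each it stayed between 0.53 and 0.71. In bulk RNA, more cells of a type and more RNA per cell cannot be told apart, here or for any gene below. IFN-β itself gave 0.11 ± 0.09 in control cells (adjusted p = 0.374) and 0.14 ± 0.09 after knockdown (adjusted p = 0.227), values that turned to -0.13 and -0.06 with library totals.

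Spi1 (ENSMUSG00000002111, chr2:91082390-91115756, plus strand) followed the cytokine and not the hairpin. Unstimulated, it had 193, 205 and 225 CPM in shControl and 207, 219 and 218 CPM in shPpargc1b libraries. With IFN-β the values were 266, 280.3 and 308 CPM and 292, 279.7 and 302 CPM. The libraries with IFN-β lay above all those without it, while those of the hairpins overlapped in each state. The rise was 0.46 ± 0.06 in shControl cells (adjusted p = 1.2e-05) and 0.44 ± 0.06 in shPpargc1b cells (adjusted p = 2.3e-05), and remained at 0.21 and 0.24 with library totals, where the median of all genes fell. Knockdown changed Spi1 by 0.05 ± 0.06 (adjusted p = 0.642) unstimulated and by 0.03 ± 0.06 (adjusted p = 0.748) with IFN-β.

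Batf3 (ENSMUSG00000026630, chr1:191097847-191108945, plus strand) passed no test. Its 12 libraries ranged from 8.67 to 13.3 CPM, and every pair of groups compared overlapped. The knockdown changes were -0.11 ± 0.13 (adjusted p = 0.623) unstimulated and -0.13 ± 0.13 (adjusted p = 0.521) with IFN-β. The IFN-β changes were 0.05 ± 0.13 (adjusted p = 0.770) and 0.03 ± 0.13 (adjusted p = 0.895), and turned to -0.19 and -0.18 with library totals. The ratio of Zbtb46 to Batf3 per length was 32.0% ± 5.12 in unstimulated control cells and 52.7% ± 5.01 after knockdown, and 33.2% ± 1.84 and 57.5% ± 5.98 with IFN-β.

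Id2 (ENSMUSG00000020644, chr12:25093799-25097140, minus strand) was slightly lower in every knockdown library. Unstimulated shControl libraries had 668, 630.1 and 638 CPM and shPpargc1b libraries 620, 621 and 564 CPM. With IFN-β the values were 683, 709.8 and 701 CPM against 645, 682 and 603 CPM. Although the groups did not overlap in either state, the knockdown changes of -0.10 ± 0.05 (adjusted p = 0.171) and -0.12 ± 0.05 (adjusted p = 0.109) missed the threshold. With IFN-β the change passed in 2 of 18 alternatives, a fit with a term for runs of library codes (-0.12, adjusted p = 0.0445) and a fit without shPpargc1b IFN-beta replicate 2 (-0.17, adjusted p = 0.0260), and its adjusted p otherwise reached 0.29. Under IFN-β Id2 stood 0.11 ± 0.05 higher in shControl cells (adjusted p = 0.0785) and 0.10 ± 0.05 higher in shPpargc1b cells (adjusted p = 0.141), values that turned to -0.13 and -0.11 with library totals. In shControl cells the rise passed in 6 of 18 alternatives, with adjusted p from 0.0145 to 0.0482, and the fall to -0.13 with library totals passed too (adjusted p = 0.0300), so neither direction held across settings.

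Among 15 other factors of the DC lineage, knockdown raised 6 and lowered 5 without stimulation, and raised 4 and lowered 5 with IFN-β. Their median log2 change was -0.15 and -0.02, beside medians of -0.0049 and -0.0108 over all genes tested. Of all genes, 12.4% rose and 11.1% fell without stimulation, and 11.5% rose and 12.7% fell with IFN-β. Irf4, a factor of the cDC2 type and one of the most abundant of the list per length, rose by 0.48 ± 0.06 and 0.66 ± 0.06 (adjusted p = 3.9e-05 and 2.5e-06). Irf8, needed for cDC1, rose by 0.37 ± 0.06 and 0.53 ± 0.06 (adjusted p = 1.8e-04 and 8.2e-06), and Relb, an NF-κB subunit, by 0.42 ± 0.05 and 0.44 ± 0.05 (adjusted p = 8.6e-06 and 6.5e-06). In the other direction, Klf4, a factor of monocytes and of some cDC2, fell by 0.82 ± 0.05 unstimulated and by 0.61 ± 0.05 with IFN-β (adjusted p = 4.9e-08 and 1.7e-06), and Notch2 and Zeb2, which like Irf4 were high per length, fell by 0.32 ± 0.04 and 0.20 ± 0.04 unstimulated (adjusted p = 1.1e-05 and 0.00107) and by 0.27 ± 0.04 and 0.18 ± 0.04 with IFN-β (adjusted p = 6.0e-05 and 0.00235). Tcf4, the E protein that drives plasmacytoid DCs, rose by 0.56 ± 0.07 unstimulated (adjusted p = 5.4e-05) and had 0.07 ± 0.07 with IFN-β (adjusted p = 0.574).

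Of 12 macrophage factors, knockdown raised 2 and lowered 6 unstimulated and raised 2 and lowered 4 with IFN-β, at medians of -0.15 and -0.14. The shares of all genes were 12.4% higher and 11.1% lower unstimulated, and 11.5% higher and 12.7% lower with IFN-β. Maf, a factor that restrains self-renewal of macrophages, fell by 0.92 ± 0.08 and 0.81 ± 0.08 (adjusted p = 8.4e-07 and 2.8e-06). Tfec, of the Mitf family, fell by 0.45 ± 0.06 and 0.38 ± 0.06 (adjusted p = 5.7e-05 and 2.7e-04), and Pparg, which governs lipid handling in macrophages, by 0.52 ± 0.09 unstimulated (adjusted p = 6.4e-04). The 2 that rose were Egr1, by 0.65 ± 0.08 and 0.39 ± 0.08 (adjusted p = 4.4e-05 and 0.00319), and Egr2, by 0.41 ± 0.06 in both states (adjusted p = 6.2e-05 and 6.7e-05). The E protein genes Tcf3 and Tcf12 and the ID genes Id1 and Id3, whose products ID2 binds or resembles, had knockdown changes of -0.19 to 0.26 with adjusted p of 0.116 or more in the edgeR test. Among Spib and Spic, relatives of Spi1, and the AP-1 genes Jun, Junb and Jund, whose products pair with BATF proteins, only Jund passed for knockdown in this fit, at 0.26 ± 0.06 and 0.30 ± 0.06 (adjusted p = 0.00361 and 0.00137).

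Because Zbtb46, Flt3 and Itgax moved together with knockdown and Csf2ra moved with Spi1 under IFN-β, the RefSeq promoters of these 4 genes are printed below, each 300 bases from 250 before to 50 after the annotated start, 5′ to 3′ on the gene's strand in GRCm38.p6. They lie at chr2:181424339-181424638 (minus) for Zbtb46, chr7:128129300-128129599 (plus) for Itgax, chr5:147400440-147400739 (minus) for Flt3 and chr19:61228369-61228668 (minus) for Csf2ra. The RefSeq start of Zbtb46 lies inside the gene as GENCODE draws it, whose 5′ end is at 181459426. Its window may therefore be internal sequence of the gene and not the promoter in use. Capitals mark the AP-1 motif TGANTCA and the ETS core GAGGAA that PU.1 reads, on either strand.
Zbtb46: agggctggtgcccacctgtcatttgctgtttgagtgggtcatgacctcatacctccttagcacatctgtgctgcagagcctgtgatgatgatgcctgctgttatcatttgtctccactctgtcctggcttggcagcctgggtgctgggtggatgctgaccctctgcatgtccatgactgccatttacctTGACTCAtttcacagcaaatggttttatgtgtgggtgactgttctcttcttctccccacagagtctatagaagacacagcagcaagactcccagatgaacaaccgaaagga
Itgax: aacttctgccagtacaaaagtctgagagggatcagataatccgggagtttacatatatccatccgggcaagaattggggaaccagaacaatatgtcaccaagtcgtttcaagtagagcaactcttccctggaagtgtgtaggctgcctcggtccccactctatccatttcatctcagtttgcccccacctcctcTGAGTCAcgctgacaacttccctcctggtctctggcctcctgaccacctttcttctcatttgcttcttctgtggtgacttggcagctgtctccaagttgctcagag
Flt3: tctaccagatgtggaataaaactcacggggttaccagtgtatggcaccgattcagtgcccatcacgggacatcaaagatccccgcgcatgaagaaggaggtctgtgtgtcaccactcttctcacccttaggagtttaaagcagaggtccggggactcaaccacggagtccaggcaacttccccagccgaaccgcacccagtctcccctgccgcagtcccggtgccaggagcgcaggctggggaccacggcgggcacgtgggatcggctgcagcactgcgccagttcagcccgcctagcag
Csf2ra: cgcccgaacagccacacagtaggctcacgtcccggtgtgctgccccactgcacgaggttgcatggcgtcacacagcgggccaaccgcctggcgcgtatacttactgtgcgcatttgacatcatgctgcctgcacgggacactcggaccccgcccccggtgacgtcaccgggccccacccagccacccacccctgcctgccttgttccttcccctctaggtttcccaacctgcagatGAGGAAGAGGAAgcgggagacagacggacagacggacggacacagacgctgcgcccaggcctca

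The windows of Zbtb46 and Itgax each carried an AP-1 match, beginning 61 and 56 bases before the RefSeq start, and Flt3 had neither motif. The match of Zbtb46 lies inside the GENCODE gene, so it cannot be taken as a promoter feature shared with Itgax. AP-1 matches were found in 7.81% of the 32851 promoters in the table. Csf2ra carried 2 copies of the ETS core back to back, the nearer one 8 bases before its start, a core present in 28.3% of promoters. Batf3 and Id2 also had an entry, while Spi1 and Csf2rb had none. Promoters on chromosome 18, where Csf1r lies, were left out of the search. In Batf3 the ETS core and the STAT element TTCNNNGAA, found in 8.30% of promoters, matched, and Id2 held only E-boxes (CANNTG), which 72.3% of promoters hold. The interferon-stimulated response element, in 3.44% of promoters, matched in none of the 6. These motifs were chosen after the values were known, and a match is a run of letters, not evidence of binding.

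Among the receptors, Flt3 (ENSMUSG00000042817, chr5:147330741-147400489, minus strand) was the rarest and moved the most. The unstimulated shControl libraries held 97, 147 and 97 counts, or 1.70, 2.41 and 1.72 CPM, and the shPpargc1b libraries 170, 209 and 182 counts, or 3.12, 3.06 and 2.51 CPM. With IFN-β the values were 1.94, 2.38 and 1.45 CPM against 3.81, 3.47 and 2.75 CPM. The knockdown libraries lay above the controls in both states, though the counts behind them are small. The rise was 0.57 ± 0.19 unstimulated (1.48-fold, adjusted p = 0.0452) and 0.81 ± 0.20 with IFN-β (1.75-fold, adjusted p = 0.00695). The unstimulated call was lost in 6 of 18 alternatives. It was lost with library totals (adjusted p = 0.0511) and without shControl unstimulated replicate 1 (0.48, adjusted p = 0.155), shControl unstimulated replicate 3 (0.49, adjusted p = 0.146), shPpargc1b unstimulated replicate 1 (0.52, adjusted p = 0.115), shPpargc1b unstimulated replicate 2 (0.53, adjusted p = 0.130) or shControl IFN-beta replicate 1 (0.57, adjusted p = 0.0561), within a range of 0.00625 to 0.155. With IFN-β it held in 18 of 18.

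Csf1r (ENSMUSG00000024621, chr18:61100598-61132149, plus strand) passed no test under TMM scaling. It had 1216, 1247 and 1215 CPM in unstimulated shControl libraries and 1223, 1219 and 1195 CPM after knockdown. With IFN-β it had 1195, 1229.6 and 1236 CPM and 1185, 1189 and 1159 CPM. The knockdown libraries with IFN-β lay just under their controls, while the unstimulated ones overlapped. The changes were -0.02 ± 0.03 (adjusted p = 0.804) and -0.05 ± 0.03 (adjusted p = 0.324). Under IFN-β it changed by -0.01 ± 0.03 in control cells (adjusted p = 0.897) and -0.04 ± 0.03 after knockdown (adjusted p = 0.365), but with library totals it was lower by call at -0.25 in both (adjusted p = 1.2e-05 and 1.6e-05), close to the shift of the median gene. Csf1r lies 165986 bases from Ppargc1b on chromosome 18, and 873 of its 5774 exon bases overlap exons of Hmgxb3 on the opposite strand. Whether reads were counted by strand is not given in the sources used here, so reads of the pair over that stretch cannot be told apart.

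The genes of the ligands were read beside them. Csf1, the ligand of CSF1R, rose with knockdown by 0.99 ± 0.06 unstimulated, from 179 to 355 CPM, and by 0.66 ± 0.05 with IFN-β, from 263 to 414 CPM (adjusted p = 1.6e-08 and 1.0e-06). IFN-β raised it by 0.56 ± 0.06 in control cells (adjusted p = 5.3e-07) and by 0.22 ± 0.05 after knockdown (adjusted p = 0.00377). The difference between these responses, -0.33 ± 0.08, did not pass (adjusted p = 0.0635). Flt3l, the ligand of FLT3, stayed between 94 and 247 counts per library and had -0.31 ± 0.15 and -0.16 ± 0.15 for knockdown (adjusted p = 0.166 and 0.476). Il34 had 1 to 4 counts and Csf2, the gene of GM-CSF itself, 0 to 8 counts per library, and both were under the filter.

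Csf2ra (ENSMUSG00000059326, chr19:61223957-61228429, minus strand), the chain that binds GM-CSF alone, went with IFN-β and not with the hairpin. Its unstimulated libraries had 276, 269.8 and 279 CPM in shControl and 277, 271 and 283 CPM in shPpargc1b cells. With IFN-β they had 338, 302 and 331 CPM and 339.6, 315 and 352 CPM. Every library with IFN-β was above every library without it. The change was 0.24 ± 0.05 in control cells (adjusted p = 8.1e-04) and 0.28 ± 0.05 after knockdown (adjusted p = 2.4e-04), and with library totals it came to 0.00 (adjusted p = 0.962) and 0.08 (adjusted p = 0.238), so the rise is relative to the median gene. Knockdown gave 0.01 ± 0.05 (adjusted p = 0.920) and 0.05 ± 0.05 (adjusted p = 0.491).

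Csf2rb (ENSMUSG00000071713, chr15:78325752-78353847, plus strand), the signalling chain shared with the IL-3 and IL-5 receptors, rose with knockdown by a small and tightly measured amount. It had 2267, 2248 and 2294 CPM in unstimulated shControl libraries and 2635, 2737 and 2738 CPM in shPpargc1b libraries. With IFN-β it had 2010.2, 1991 and 2031 CPM against 2659, 2475 and 2565 CPM. Every knockdown library lay above every control library of the same state. The rise was 0.25 ± 0.04 (19.1%, adjusted p = 1.8e-04) unstimulated and 0.35 ± 0.04 (27.6%, adjusted p = 1.0e-05) with IFN-β. IFN-β lowered it by 11.4% in control cells, at -0.17 ± 0.04 (adjusted p = 0.00145), and gave -0.08 ± 0.04 after knockdown (adjusted p = 0.138), which passed only with library totals (-0.28, adjusted p = 2.6e-05). The difference between those responses was 0.10 ± 0.05 (adjusted p = 0.584) and did not pass.

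Csf2rb has a near copy, Csf2rb2 (ENSMUSG00000071714, chr15:78282507-78305721, minus strand), which encodes the IL-3-specific β chain of the mouse. Their coding sequences, 2688 and 2634 bases, were 95.3% identical outside gaps when aligned, and 6.96% of the 100-base windows of that Csf2rb transcript occur unchanged in a Csf2rb2 transcript. The opening 90 coding bases from the GENCODE M21 transcripts show how close they are, with the 3 bases that differ in capitals.
Csf2rb: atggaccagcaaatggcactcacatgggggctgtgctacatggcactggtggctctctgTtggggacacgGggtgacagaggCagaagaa
Csf2rb2: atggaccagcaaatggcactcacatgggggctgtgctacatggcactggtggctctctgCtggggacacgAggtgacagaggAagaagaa

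Reads from identical stretches cannot be assigned between them, so the values of both genes carry that uncertainty. Csf2rb2 had 217 ± 1.34 RPKM in unstimulated control cells. It rose with knockdown by 0.14 ± 0.04 in both states (adjusted p = 0.0151 and 0.0157), and with IFN-β by 0.18 ± 0.04 in both cell types (adjusted p = 0.00104 and 0.00134), where Csf2rb had gone down or missed the test. With library totals this direction turned, the mean of Csf2rb2 going from 236 to 226 RPKM in shControl and from 257 to 252 RPKM in shPpargc1b cells. The ratio of Csf2rb to Csf2rb2 per length was 1.44 ± 0.0231 in unstimulated control cells, 1.56 ± 0.0586 after knockdown, 1.12 ± 0.00712 in control cells with IFN-β and 1.31 ± 0.00944 in knockdown cells with IFN-β, with no overlap between any of the groups. Csf2rb stood 3.26 ± 0.0273 times as high per length as Csf2ra in unstimulated control cells and 2.46 ± 0.132 times with IFN-β, and after knockdown the ratios were 3.85 ± 0.121 and 3.02 ± 0.127. These ratios are within a library, so they do not depend on the scaling.

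**Figure D2:**
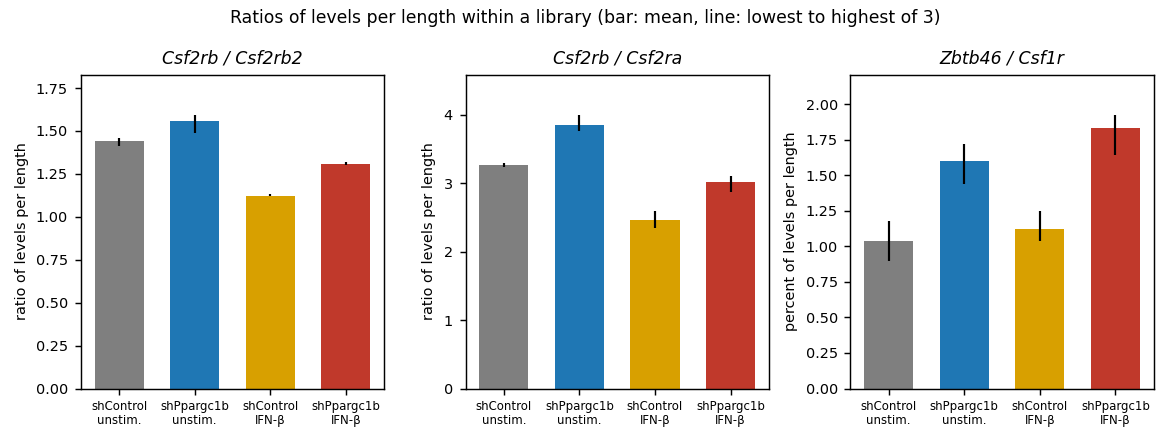
Ratios of levels per length within each library, as the mean of 3 libraries (bars from 0) with lines from the lowest to the highest, for Csf2rb over Csf2rb2, Csf2rb over Csf2ra and Zbtb46 over Csf1r (in percent), in the 4 groups. Csf2rb over Csf2rb2 runs from 1.12 in control cells with IFN-β to 1.56 in unstimulated knockdown cells, and Zbtb46 over Csf1r is higher after knockdown in both states.

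Other parts of the receptor pathway moved unevenly, and their counts are set beside the shares of all genes. Knockdown raised 12.4% and lowered 11.1% of all genes unstimulated, and raised 11.5% and lowered 12.7% with IFN-β. Of 5 receptor relatives, 2 rose with knockdown in each state, Csf2rb2 and Kit, the latter by 0.93 ± 0.12 and 0.78 ± 0.12 from only 7.54 and 4.57 CPM (adjusted p = 3.1e-05 and 2.8e-04), and none fell. Il3ra, Il5ra and Csf3r did not pass for knockdown. Of 8 genes that signal below these receptors, 2 rose and 2 fell in each state. Jak2, the kinase bound to CSF2RB, rose by 0.61 ± 0.05 unstimulated and by 0.24 ± 0.05 with IFN-β (adjusted p = 3.4e-07 and 0.00145), and Inpp5d, the inhibitory phosphatase SHIP1, fell by 0.14 ± 0.04 and 0.18 ± 0.04 (adjusted p = 0.0226 and 0.00502). Stat5a rose by 0.31 ± 0.08 with IFN-β (adjusted p = 0.00760) and Stat5b fell by 0.15 ± 0.04 unstimulated (adjusted p = 0.0245). Among 5 STAT5 targets and SOCS inhibitors, 2 rose unstimulated and 3 with IFN-β. Socs2 rose by 0.22 ± 0.07 and 0.33 ± 0.07 (adjusted p = 0.0278 and 0.00221), Socs3 by 0.52 ± 0.10 and 0.34 ± 0.10 (adjusted p = 9.1e-04 and 0.0165), and Cish by 0.28 ± 0.09 with IFN-β (adjusted p = 0.0323).

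Itgax (ENSMUSG00000030789, chr7:128129547-128150657, plus strand) rose modestly with knockdown. It had 1018, 901 and 927 CPM in the unstimulated shControl libraries and 1136, 1123 and 1152 CPM in the shPpargc1b libraries. With IFN-β it had 1079, 975 and 954 CPM against 1131, 1182 and 1149 CPM. The groups did not overlap in either state. The rise was 0.26 ± 0.05 in unstimulated cells (adjusted p = 0.00180) and 0.20 ± 0.05 under IFN-β (adjusted p = 0.0103), and the second call was lost without shControl IFN-beta replicate 2 (0.17, adjusted p = 0.0636) or replicate 3 (0.16, adjusted p = 0.0799), within a range of 3.1e-05 to 0.0799. IFN-β gave 0.08 ± 0.05 in control cells (adjusted p = 0.232) and 0.02 ± 0.05 after knockdown (adjusted p = 0.777), and with library totals it was lower by call at -0.16 and -0.18 (adjusted p = 0.0176 and 0.00915).

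The other integrin genes did not follow. Itgb2, the β chain with which CD11c pairs, had -0.02 ± 0.04 and -0.10 ± 0.04 for knockdown (adjusted p = 0.812 and 0.114), Itgam, the gene of CD11b, -0.13 ± 0.06 and -0.07 ± 0.06 (adjusted p = 0.126 and 0.422), and Itgal -0.01 ± 0.05 in both states (adjusted p = 0.907 and 0.921). Itgad was nearly absent, with 4 to 16 counts per library. Its knockdown changes were -1.40 ± 0.58 and 0.14 ± 0.50 (adjusted p = 0.104 and 0.882).

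**Figure D3:**
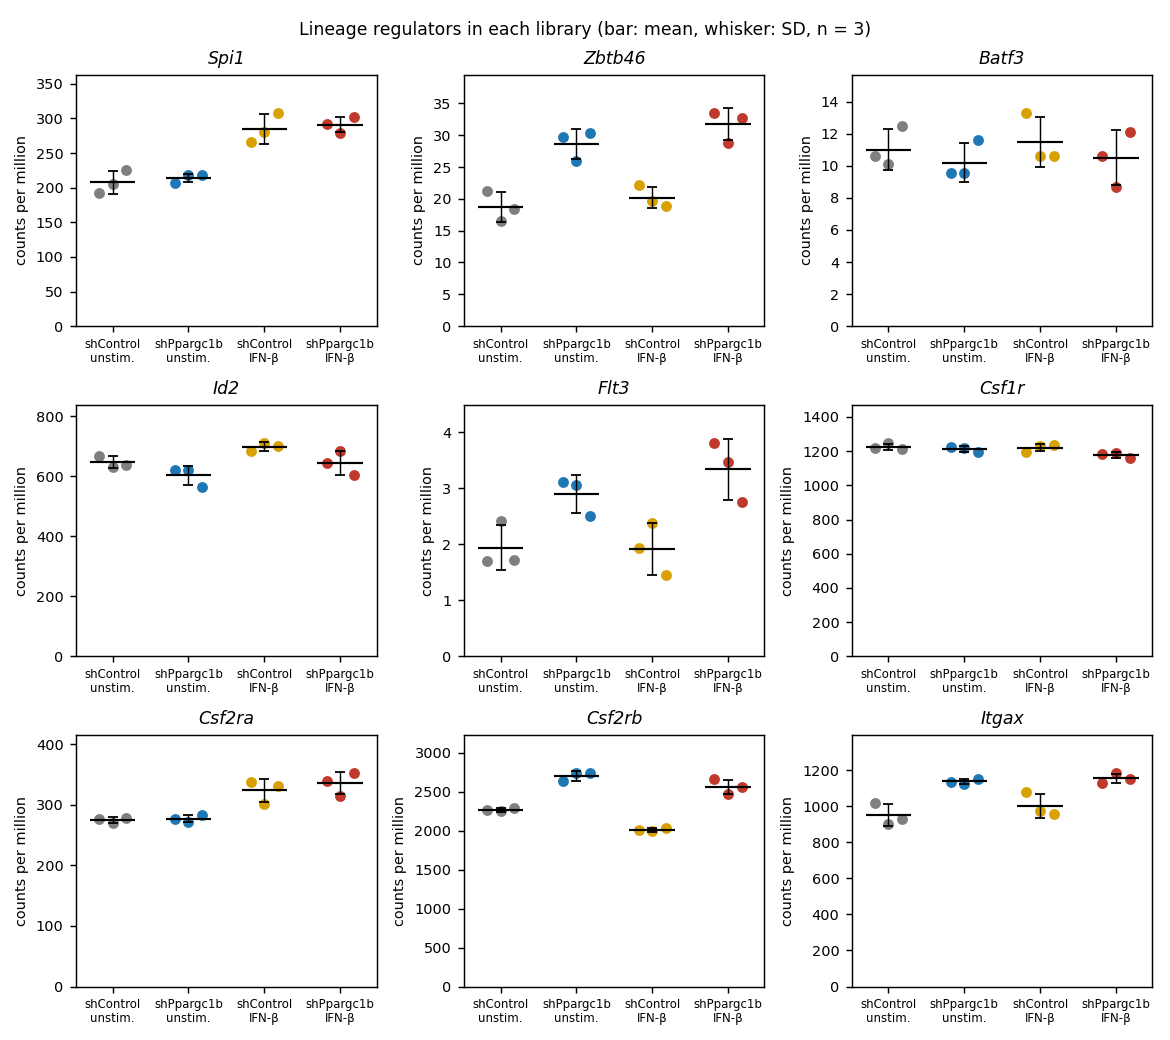
CPM of the 9 regulators in each of the 12 libraries, 1 panel per gene on linear axes from 0, with the mean and SD of 3 libraries. Zbtb46, Flt3, Csf2rb and Itgax are higher in the shPpargc1b libraries of both states, Spi1 and, under TMM scaling but not library totals, Csf2ra are higher with IFN-β, and Batf3 and Csf1r show neither step.

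Counted together, 4 of the 9 regulators rose and 0 fell with knockdown in unstimulated cells by edgeR, where 12.4% of the 18228 genes rose and 11.1% fell. In 5 of the 9 the libraries did not overlap, beside 36.8% of all genes. With IFN-β the same 4 genes rose and 0 fell, against 11.5% and 12.7% of all genes, and 6 of the 9 did not overlap, against 38.7%. For IFN-β in shControl cells 2 rose and 1 fell, where 23.7% of all genes rose and 24.6% fell, and 4 did not overlap against 56.7%. For IFN-β in shPpargc1b cells 2 rose and 0 fell, against 21.4% and 21.2%, and 3 did not overlap against 50.1%. With library totals the balance under IFN-β turned, to 1 higher and 4 lower in shControl and 1 higher and 3 lower in shPpargc1b cells. Of the regulators that were lower and did not pass, Id2 had the smallest unadjusted p for knockdown, 0.0615 unstimulated and 0.0342 with IFN-β, and DESeq2 called no regulator lower for knockdown. The median change of the 9 was 0.05 for knockdown in both states, and 0.08 and 0.10 for IFN-β, beside medians of all genes between -0.0338 and -0.0049.

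The test of whether knockdown altered the response to IFN-β called 0 of the 9 regulators by edgeR and also by DESeq2, and none had an unadjusted p under 0.05. Over all genes edgeR called 0.0603% higher and 0.669% lower. The widest was Flt3, at 0.24 ± 0.28 (adjusted p = 0.863), and the next Csf2rb, at the 0.10 given above. Knockdown comparisons and IFN-β comparisons share groups of libraries, so the values are set side by side and not correlated.

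**Figure D4:**
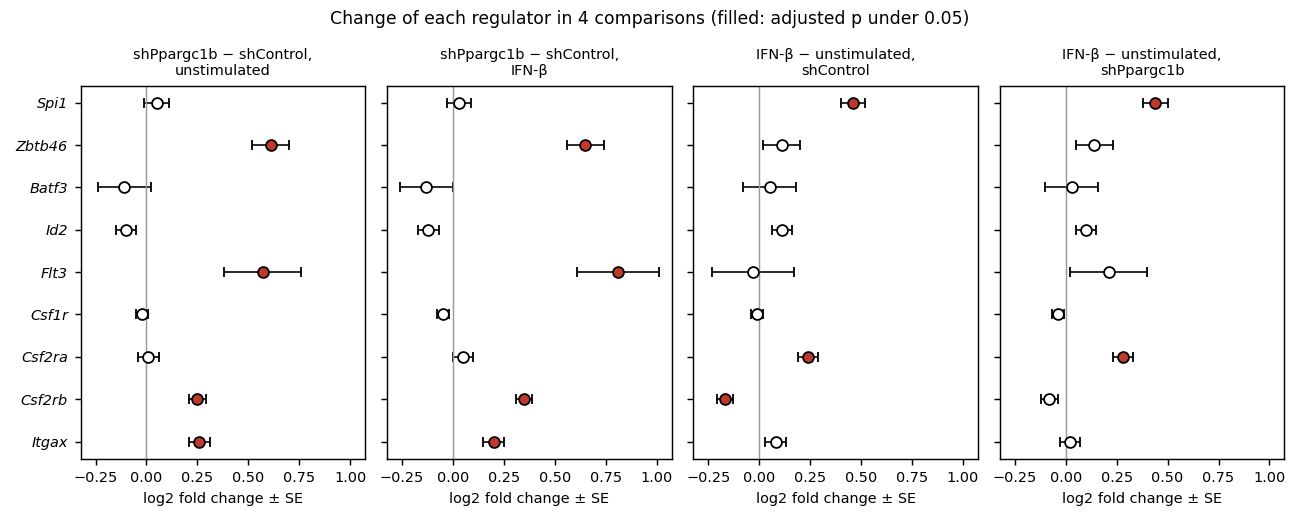
Log2 fold change ± SE of each regulator in 4 comparisons, with filled circles for an adjusted p under 0.05 in edgeR's test. For knockdown the filled circles are Zbtb46, Flt3, Csf2rb and Itgax in both states, from 0.20 to 0.81, and for IFN-β they are Spi1 and Csf2ra in both cell types and Csf2rb, at -0.17, in shControl cells, with Csf2ra at 0.00 and 0.08 under library totals.

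A pair of identity lists was then read beside the regulators, a list of genes that tell classical DCs from macrophages and a list of genes that mark macrophages. Of 15 genes of the conventional dendritic core, 9 rose and 0 fell with knockdown in unstimulated cells, and again 9 and 0 with IFN-β, at medians of 0.49 and 0.38. Among all genes 12.4% rose and 11.1% fell unstimulated, and 11.5% rose and 12.7% fell with IFN-β. Ccr7, the receptor that takes DCs to lymph nodes, rose by 1.32 ± 0.07 and 1.36 ± 0.07 (adjusted p = 1.2e-08 in both states), from 50.9 to 128 CPM and from 81.1 to 208 CPM. Btla, an inhibitory receptor, rose by 1.40 ± 0.18 and 1.40 ± 0.17 (adjusted p = 4.4e-05 and 3.2e-05), and the protease gene Adam19 by 0.70 ± 0.12 and 0.98 ± 0.12 (adjusted p = 6.2e-04 and 3.2e-05). Ass1, the most abundant of the list per length, rose by 0.45 ± 0.05 and 0.23 ± 0.05 (adjusted p = 1.0e-05 and 0.00298), while Tbc1d8 had 0.12 ± 0.07 and 0.19 ± 0.07 (adjusted p = 0.229 and 0.0564). Ccr7 is also a gene of DC maturation. IFN-β raised 10 of the 15 in control cells and 11 after knockdown, where 23.7% and 21.4% of all genes rose. Under library totals it raised 7 and lowered 1 in each, where 2598 and 2340 of the 18228 genes rose.

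Of 23 genes of the macrophage core, 2 rose and 11 fell with knockdown unstimulated, and 1 rose and 11 fell with IFN-β, at medians of -0.15 and -0.17. Beside these, 12.4% of all genes rose and 11.1% fell unstimulated, and 11.5% rose and 12.7% fell with IFN-β. Camk1 fell by 0.71 ± 0.07 and 0.57 ± 0.07 (adjusted p = 3.2e-06 and 3.6e-05), Fgd4 by 0.63 ± 0.05 and 0.51 ± 0.05 (adjusted p = 3.1e-07 and 2.9e-06), and Pros1, the ligand of the engulfment receptor MERTK, by 0.60 ± 0.09 and 0.54 ± 0.09 (adjusted p = 9.1e-05 and 3.0e-04). Against that direction, Cd14, the co-receptor for lipopolysaccharide and high per length in the list, rose by 0.44 ± 0.06 and 0.23 ± 0.06 (adjusted p = 7.0e-05 and 0.0104). The other that rose unstimulated was Blvrb, by 0.14 ± 0.04 (adjusted p = 0.0214), named after its value was seen. Ctsd and Pld3, lysosomal genes and the 2 highest per length in unstimulated shControl cells, had -0.12 ± 0.05 and 0.03 ± 0.04 unstimulated (adjusted p = 0.0934 and 0.670). IFN-β raised 9 and lowered 6 of the 23 in control cells, where 23.7% of all genes rose and 24.6% fell. With library totals it raised 4 and lowered 14, where 2598 of the 18228 genes rose and 8294 fell.

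**Figure D5:**
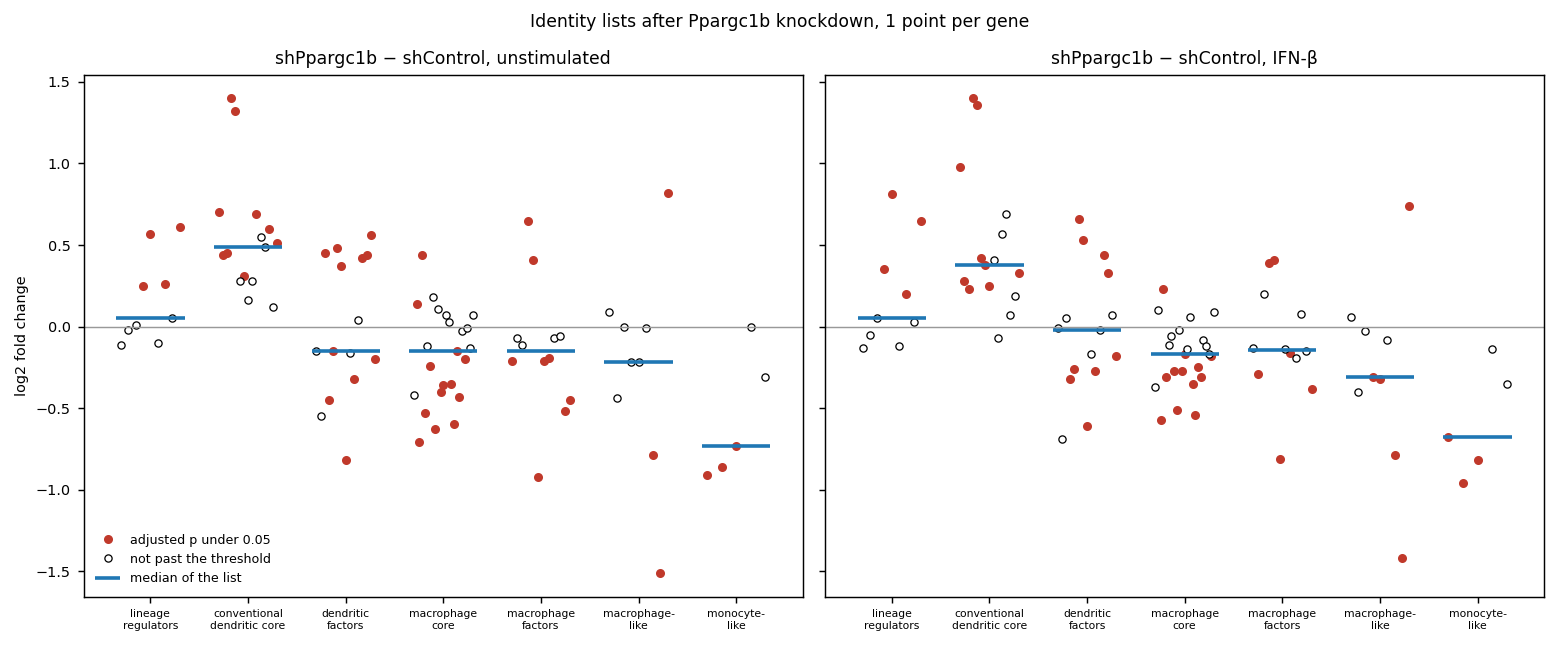
Log2 fold change for knockdown, unstimulated (left) and with IFN-β (right), 1 point per tested gene in 7 lists, filled where the adjusted p was under 0.05, with blue lines at the list medians. The conventional dendritic core lies mostly above 0, with medians of 0.49 and 0.38, the monocyte-like list lowest, with medians of -0.73 and -0.68, and the 9 regulators near 0.05.

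The labelled cell type was checked against marker lists of single cell types. In unstimulated control cells the macrophage-like list had a mean sum of 12019.5 CPM, of which Lyz2 alone gave 10350.4 CPM. There the cDC2-like list had 1174 CPM, the cDC1-like list 261 CPM and the conventional dendritic core 950.2 CPM. The 9 macrophage-like markers summed to between 11607 and 12312 CPM in unstimulated control libraries and between 7119 and 7634 CPM after knockdown, and to 11169 to 12056 against 6748 to 7744 CPM with IFN-β. Most of this sum is Lyz2, the lysozyme of myeloid cells, which fell by 0.79 ± 0.06 in both states (adjusted p = 1.6e-07 and 2.3e-07). Mrc1, the mannose receptor CD206, fell by 1.51 ± 0.11 and 1.42 ± 0.11 (adjusted p = 2.0e-07 and 5.8e-07), while Pf4, a chemokine of platelets and some macrophages, rose by 0.82 ± 0.06 and 0.74 ± 0.06 (adjusted p = 1.6e-07 and 7.7e-07). Cd68, a lysosomal glycoprotein of macrophages, did not pass, at -0.01 ± 0.05 and -0.08 ± 0.05 (adjusted p = 0.953 and 0.329). In all, 1 of the 9 rose and 2 fell unstimulated, and 1 rose and 4 fell with IFN-β, Mrc1, Lyz2, C1qb and C1qc. For comparison, 12.4% of all genes rose and 11.1% fell unstimulated, and 11.5% rose and 12.7% fell with IFN-β.

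The 5 monocyte-like markers summed to 6519 to 7336 CPM in unstimulated control libraries and 3989 to 4597 CPM after knockdown, and to 4389 to 4718 against 2888 to 2959 CPM with IFN-β. Most of this sum is Fn1, the gene of fibronectin, with means of 5669 and 3409 CPM unstimulated and 3094 and 1747 CPM with IFN-β. Fn1, F13a1 and the chemokine receptor gene Ccr2 fell in both states, Ccr2 by 0.91 ± 0.15 and 0.68 ± 0.15 (adjusted p = 3.1e-04 and 0.00308), whereas Ly6c2 had 0.00 ± 0.10 and -0.14 ± 0.10 (adjusted p = 0.986 and 0.373). Both sums moved opposite to Zbtb46, Flt3, Csf2rb and Itgax, and their part in those results was not tested.

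Markers that separate the DC types were uneven. Of 6 cDC1-like markers, Xcr1, named after its values were seen, had 3 to 19 counts per library and Clec9a 976 to 1437, and only Tlr3 passed for knockdown, falling by 0.49 ± 0.08 and 0.49 ± 0.07 (adjusted p = 3.7e-04 and 9.5e-05). Of the cDC2-like markers Cd209a was under the filter at 0 to 11 counts, and Sirpa, which macrophages share, fell by 0.24 ± 0.03 and 0.22 ± 0.03 (adjusted p = 9.5e-05 and 2.4e-04), and Clec10a by 0.46 ± 0.15 unstimulated (adjusted p = 0.0329). The plasmacytoid-like list summed to between 3.46 and 8.21 CPM in all libraries, with Siglech, Ly6d and Klk1 under the filter. Lymphocyte-like markers summed to at most 0.947 CPM and erythroid-like markers to at most 0.311 CPM.

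Other granulocyte and precursor lists were low. The neutrophil-like markers summed to 42.6 to 97.0 CPM in unstimulated control libraries and 91.7 to 162 CPM after knockdown. In each state 2 of 9 rose, beside 12.4% of all genes unstimulated and 11.5% with IFN-β. Leaving out shControl unstimulated replicate 1 or shPpargc1b unstimulated replicate 3 left 0 of the unstimulated calls, and in each of these fits 1 marker was lower by call. Leaving out shControl unstimulated replicate 2 or 3 left 1. Without shControl IFN-beta replicate 1 or 3 or shPpargc1b IFN-beta replicate 1 or 3, 0 of the calls under IFN-β were left. Eosinophil-like markers summed to 22.2 to 63.7 CPM and mast cell or basophil-like markers to 2.87 to 19.1 CPM over all libraries, and Gata2, of the latter, rose by 1.64 ± 0.19 and 1.47 ± 0.20 (adjusted p = 1.2e-05 and 5.7e-05) from 1.87 and 1.48 CPM. Of 4 progenitor-like genes, Cd34 rose by 2.15 ± 0.27 and 2.52 ± 0.29 (adjusted p = 3.0e-05 and 1.4e-05), reaching 2.47 and 2.31 CPM, and Meis1 by 0.37 ± 0.11 and 0.70 ± 0.11 (adjusted p = 0.0217 and 3.5e-04). Among osteoclast-like genes, which cells of the macrophage lineage also express when they fuse, Ocstamp rose by 1.53 ± 0.09 and 1.42 ± 0.09 and Dcstamp by 0.71 ± 0.07 and 0.67 ± 0.07, while Ctsk fell by 0.60 ± 0.11 and 0.66 ± 0.10 and Acp5 by 0.26 ± 0.08 and 0.24 ± 0.08, all past the threshold.

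Over the 12 libraries, Pearson's r of log2 CPM between regulators was highest for Zbtb46 with Itgax, at 0.942, and for Spi1 with Csf2ra, at 0.908, and lowest for Id2 with Csf2rb, at -0.789, and Zbtb46 with Csf1r, at -0.773. These are descriptions over 4 groups of 3 that share libraries, scaling and the treatment steps themselves. Among 8743 well expressed genes the pattern most like Zbtb46 was that of Rbp4 (r = 0.977) and Timp1 (0.975), and Timp1 (0.979) and Ap1s3 (0.954) were also nearest to Itgax. Nearest to Flt3 were Med17 (0.940) and Tnfrsf9 (0.929), and nearest to Csf2rb Gga2 (0.982) and Mrfap1 (0.980). Spi1 was most like Tesk1 (0.989) and Fbrs (0.987), and Csf2ra most like Pkp4 (0.969) and Csf3r (0.963). For the genes that passed no test the best matches were weaker, with Cul5 (0.910) and Sh3d19 (0.881) for Csf1r, Arfgef1 (0.912) and Zfp24 (0.911) for Id2, and Ehbp1l1 (0.862) and Ppp2r3d (0.837) for Batf3.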

How the data were processed

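Libraries were made by the authors from total RNA depleted of ribosomal RNA. Read pairs were trimmed (Trim Galore 0.6.0) and mapped to mm10 with STAR, version 2.7.8a per the submitters' processing notes, and the deposited values are raw counts per gene as STAR wrote them, without normalization or pooling. The strand setting was not given in the sources used here. From the counts, edgeR 4.0.16 (R 4.3.3) was run with TMM factors, filterByExpr (minimum count 10, minimum total 15) and the quasi-likelihood F-test on all 12 libraries with 1 mean per group, and p-values were adjusted by Benjamini-Hochberg over 18228 genes. DESeq2 1.42.0, RLE factors, library totals, a filter of 1 count, fits of only 6 libraries, a term for each run of consecutive library codes (not called a batch by the labels) and 12 fits that each left out 1 library were alternatives. The fits were tested on simulated data with 200 changed genes. Lengths and positions came from GENCODE M21 and promoters from RefSeq, both on GRCm38.

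Members, gene lists and alternatives were chosen with earlier results of these data known. The lists rest on general knowledge. Of lists of 5 genes or fewer any gene was named, and of longer lists the 3 highest per length, up to 4 with the widest change past the threshold in a comparison, and those under the filter. For each regulator the 2 genes with the highest correlation were named, among those with a mean log2 CPM of at least 3. Replicate numbers follow record order and pair no libraries. Counts from PCR carry no molecular identifiers.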

Additional observations from a re-analysis of the deposited data

How the results depend on the processing

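Over 801 refits of a regulator's change, 720 kept their direction and their side of the threshold and 60 changed sign. Of those that kept their sign, 9 lost a call and 12 gained one. Some sign changes also crossed the threshold, under IFN-β with library totals. Id2 in shControl cells (adjusted p = 0.0300) and Itgax in both cell types (adjusted p = 0.0176 and 0.00915) became lower by call, and Csf2ra in shControl cells lost its call (adjusted p = 0.962). Library totals in place of TMM changed the number of regulators past the threshold for IFN-β from 3 to 5 in shControl cells and from 2 to 4 in shPpargc1b cells. It turned the IFN-β changes of Zbtb46 to -0.13 and -0.06, Batf3 to -0.19 and -0.18, Id2 to -0.13 and -0.11 and Itgax to -0.16 and -0.18, and that of Csf2ra in shControl cells to 0.00. It also turned the knockdown change of Csf2ra to 0.00 unstimulated, and the interactions to 0.01 for Batf3, 0.02 for Id2, 0.02 for Spi1 and 0.00 for Csf1r. Csf1r under IFN-β in shControl cells turned to 0.01 with RLE factors, with DESeq2 and with only the 6 libraries compared, and its unstimulated knockdown change to 0.00 with a filter of 1 count.

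With 1 library left out, sign changes occurred within these ranges. Knockdown gave 0.00 to 0.11 for Spi1 and 0.00 to 0.03 for Csf2ra unstimulated, and -0.03 to 0.08 for Spi1 and -0.01 to 0.08 for Csf2ra with IFN-β. IFN-β gave -0.05 to 0.13 for Batf3, -0.19 to 0.17 for Flt3 and -0.03 to 0.03 for Csf1r in shControl cells, and -0.09 to 0.15 for Batf3 in shPpargc1b cells. Interactions ran from -0.04 to 0.14 for Zbtb46, -0.16 to 0.09 for Batf3, -0.07 to 0.03 for Id2, -0.07 to 0.06 for Spi1 and -0.02 to 0.08 for Csf2ra. The cause of each was not tested.

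Over all genes the interaction was called in 133 genes, against 84 with library totals, 525 with a filter of 1 count, 449 by DESeq2, 425 with a term for library codes and 36 to 271 with 1 library left out. Under the alternatives, chosen for the lists after seeing the data, the conventional dendritic core had 8 to 12 genes higher and 0 lower with knockdown unstimulated and 6 to 13 and 0 with IFN-β, and the macrophage core 8 to 12 and 8 to 15 lower. The neutrophil-like list had 0 to 6 and 0 to 5 higher, with the most under the filter of 1 count, and 1 unstimulated by DESeq2. It had 0 to 1 lower unstimulated and 0 lower with IFN-β. The labels give no replicate numbers, so no libraries were paired by number. Each run of 4 consecutive library codes holds 1 library of each group. The deviations from group means of 18 pairs in the same run correlated at 0.0276 to 0.146 (median 0.0867). For 36 pairs of other runs and groups they correlated at -0.154 to 0.0565 (median -0.0436). Taking out the group means ties these 2 sets of values to each other, so the second is not an independent comparison. A term for the run, which acts as a block, called 5041 genes against 4295 for unstimulated knockdown and 5180 against 4414 with IFN-β, and of 45 changes of regulators it altered 2 calls, both of Id2. Flt3, at 90 to 209 counts per library, had the fewest counts of the members and the widest SE, and the cause of that width was not tested.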
